A study of Xenopus laevis with 8 samples.

Results

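The cyclins of families A, B, D and E were followed in *Xenopus laevis* animal caps, the ectoderm of the blastula, which is pluripotent when it is cut. Of 15491 *Xenopus* probe sets on the Affymetrix array, 21 carry 1 gene symbol that names such a cyclin once the ending .L or .S is removed. These endings mark the 2 homoeologous copies of a gene in this allotetraploid frog. The 21 probe sets read both copies of *ccna1*, *ccna2*, *ccnb1.2*, *ccnb2*, *ccnb3*, *ccnd1* and *ccne1*, the single copies *ccnb1.S*, *ccnd2.L* and *ccne2.L*, and a *ccnd2* entry with no ending. A further probe set annotated to both copies of *ccnb2* has no single name and was left out. Membership rests on the symbol alone, but these families were chosen by earlier log2 changes between EFTF and GFP caps on the same arrays. The differences of single cyclins between the groups are therefore descriptions, given with their errors and no p-value.

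EFTF caps were taken from embryos that had received, at the 2-cell stage, RNAs encoding the eye field transcription factors *pax6*, *tbx3*, *rax*, *nr2e1*, *six3* and *six6* together with *otx2*. GFP caps had received only RNA of a fluorescent protein, which the labels call GFP and the methods of the study Venus YFP. By those methods the EFTF embryos received it as well. All caps were cut at stage 9 and kept in culture until the age of stage 15 embryos, and several caps were pooled for each of the 4 EFTF and 4 GFP arrays. The RNAs were injected into both cells of the embryo, and the dose in each cell of the cap was not measured here. The study raises the possibility that some cells received too little. The caps have no underlying mesoderm, so they stand for isolated ectoderm and not for an eye field in place. One array, GFP replicate 1, is GFP by its title but EFTF by its source entry. The title was followed, and changes without this array are given for the leading cyclins. Levels are log2 RMA intensities, and every change is EFTF minus GFP on that scale.

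Cyclins are the regulatory subunits of the cyclin-dependent kinases (Cdks), and their synthesis and destruction drive the cell cycle. D cyclins act with Cdk4 and Cdk6 in G1, cyclin E with Cdk2 at the entry into S phase, A cyclins with Cdk2 and Cdk1 through S and G2 phase, and B cyclins with Cdk1 in mitosis. The cleaving frog embryo divides on maternal cyclins, and *ccna1* is known in this species as the cyclin A of the egg and early embryo. *ccna2* is the cyclin A of somatic cells, and the D cyclins belong to the longer cycles that follow the midblastula transition.

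The arrays had log2 medians between 4.07 and 4.24. Between 72.4% and 83.4% of probe sets on EFTF arrays, and between 80.8% and 81.7% on GFP arrays, exceeded the highest of 17 tag controls that match no frog transcript, which is the background limit used here. Of 13 epidermis probe sets, 11 were above this limit on all 8 arrays. Of 4 mesoderm and 5 endoderm probe sets, 0 were above it on all 8, and *myod1.L*, *gata6.S*, *sox17a.L* and *sox17a.S* were below it on all 8. Of 14 neural plate and eye field probe sets, 9 were called higher in EFTF caps and 0 lower. Of these 14, 7 read genes of the injected factors, with 4 called, and 7 read *hesx1*, *ncam1*, *sox2* and *sox3*, with 5 called. The study states that the probe sets it used for *pax6*, *rax* and *otx2* do not detect the RNAs injected. It lists a single accession for each gene, so the statement may not cover every probe set counted here. It makes no such statement for *six6*. The summed level of all 14 ran from 10.8 to 12.0 on EFTF arrays and from 8.20 to 9.28 on GFP arrays. The 9.28 was that of GFP replicate 1, whose title and source entry disagree, and it lay below every EFTF array.

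Of the 21 probe sets, those of the copies of cyclin A1 had the lowest changes. *ccna1.L* read 8.04, 7.88, 7.10 and 6.10 on EFTF replicates 1 to 4, against 9.21, 9.39, 9.52 and 8.84 on GFP replicates 1 to 4. All 4 EFTF arrays lay below all 4 GFP arrays. The change was -1.96 ± 0.41 (SE of the limma fit, n = 4 and 4), a 3.89-fold difference. *ccna1.S* read 7.78, 6.46, 5.60 and 3.58 in EFTF caps, against 8.84, 8.42, 8.45 and 7.03 in GFP caps. Here the groups overlapped, because EFTF replicate 1 stood above GFP replicate 4. The change of *ccna1.S* was -2.33 ± 0.83. In both copies replicate 4 had the lowest level of its group, in EFTF and in GFP caps alike. Without EFTF replicate 4 the change of *ccna1.S* was -1.57, and without EFTF replicate 1 it was -2.97. Without GFP replicate 1 the changes were -1.97 for *ccna1.L* and -2.11 for *ccna1.S*. In bulk RNA, fewer cells that express a gene and less RNA in each cell cannot be told apart.

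Cyclin A2 ran the other way. *ccna2.L* read 5.53, 6.26, 6.53 and 8.66 in EFTF caps, against 4.77, 4.53, 4.71 and 5.42 in GFP caps, and the groups did not overlap. The change was 1.89 ± 0.60, or 3.70-fold. EFTF replicate 4 stood well above the other EFTF arrays, and without it the change was 1.25. *ccna2.S* read 3.11, 3.54, 4.82 and 4.39 in EFTF caps, against 2.76, 3.10, 2.94 and 3.66 in GFP caps, where 1 array was below background. The background limits of the 8 arrays ran from 2.90 to 3.18, so *ccna2.S* was near background on GFP replicates 1 to 3. Its change was 0.85 ± 0.38, with overlapping groups, 0.57 without EFTF replicate 3 and 0.39 with 16 added before log2. Without GFP replicate 1 the changes were 1.86 for *ccna2.L* and 0.73 for *ccna2.S*.

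**Figure D1:**
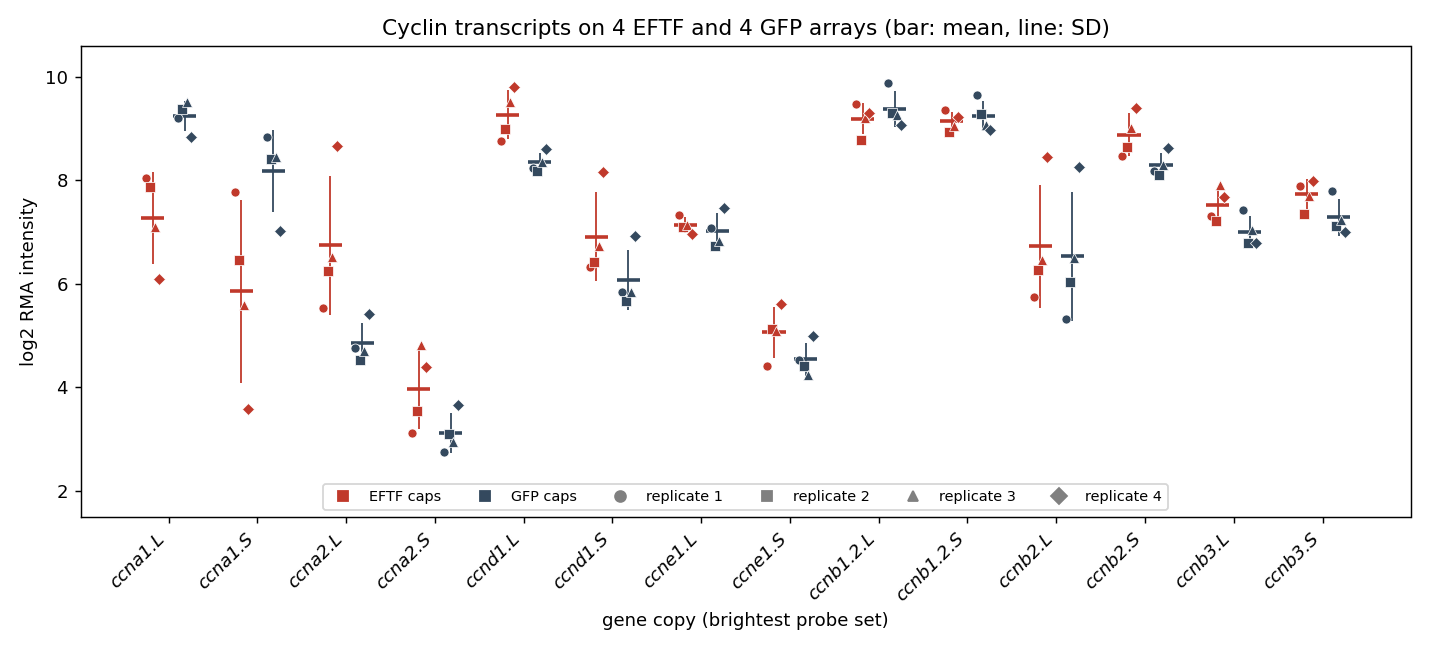
Log2 RMA intensity (vertical axis) of 14 cyclin gene copies (horizontal axis, brightest probe set of each) on 4 EFTF and 4 GFP arrays, with symbols for replicate numbers, bars for group means and lines for SD. The EFTF arrays of *ccna1.L* sit between 6.10 and 8.04, all below the GFP arrays, and those of *ccna2.L* between 5.53 and 8.66, all above them.

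The opposed levels of cyclins A1 and A2 were also taken as a difference within each array, which an array-wide shift does not alter. Averaged over the L and S copies, *ccna1* minus *ccna2* was 3.59, 2.27, 0.68 and -1.68 on EFTF replicates 1 to 4, against 5.26, 5.09, 5.16 and 3.39 on GFP replicates 1 to 4. The SD was 2.27 in EFTF and 0.89 in GFP caps, and EFTF replicate 1 lay just above GFP replicate 4. The difference between the groups was -3.51 ± 1.22 (SE, n = 4 and 4), or 11.4-fold. Leaving out EFTF replicate 4 gave -2.55, leaving out EFTF replicate 1 gave -4.31, and leaving out GFP replicate 1 gave -3.34. Between arrays of the same number it was -1.67, -2.82, -4.48 and -5.08 for numbers 1 to 4. It was -3.85 ± 1.15 for the L copies alone and -3.18 ± 1.34 for the S copies. The change of *ccna1.S* minus that of *ccna1.L* was -0.37 ± 0.55, and the change of *ccna2.L* minus that of *ccna2.S* was 1.03 ± 0.55, both under 2 SE. Every value here that includes *ccna2.S* is limited by its levels near background on GFP replicates 1 to 3.

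**Figure D2:**
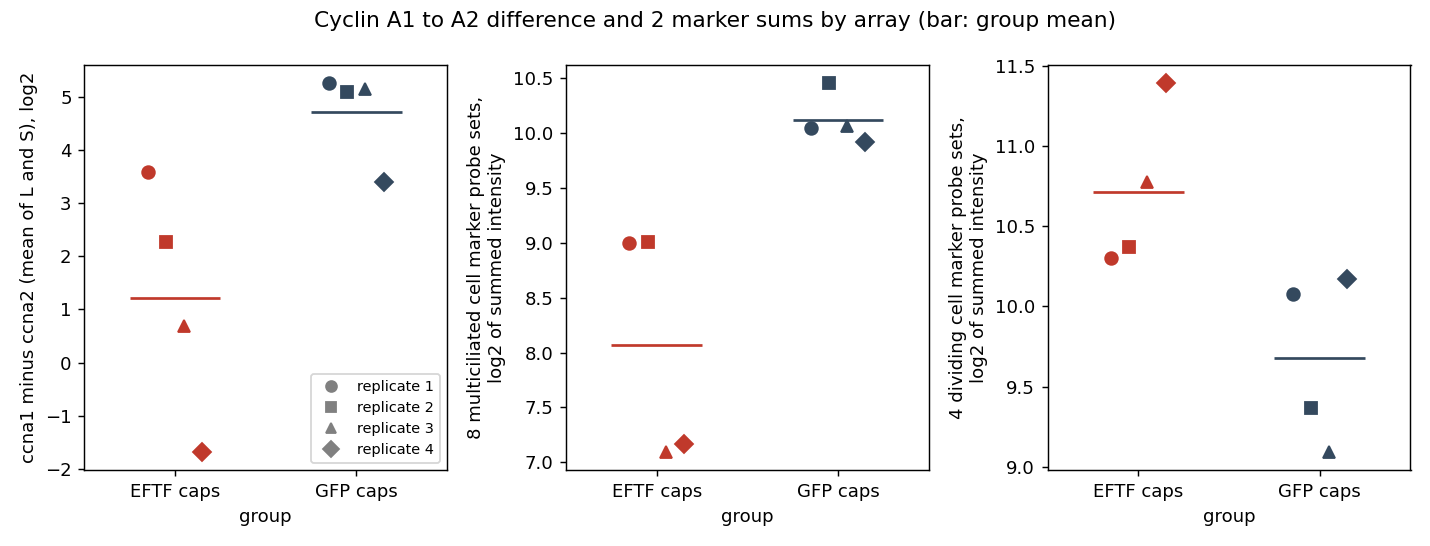
Left, the log2 difference of *ccna1* and *ccna2* (mean of L and S copies) on each EFTF and GFP array; middle and right, the log2 summed intensity of 8 multiciliated cell and 4 dividing cell marker probe sets on the same arrays, with bars for group means. EFTF arrays run from -1.68 to 3.59 and GFP arrays from 3.39 to 5.26 on the left, and the groups are apart in the other panels. Of the dividing cell markers only *pcna.L* was apart by itself.

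Markers of 4 kinds of cell differed on average between the groups, though few of them were called by limma. Multiciliated cell markers had a summed level of 7.10 to 9.01 in EFTF caps and 9.92 to 10.5 in GFP caps, and 7 of their 8 probe sets were lower on average in EFTF caps. *myb.S* on that list was below background on all 8 arrays, and *foxj1* and *mcidas* were not analysed here. Ionocyte markers had a summed level of 6.48 to 10.0 in EFTF caps and 10.9 to 11.4 in GFP caps, with 6 of 6 lower on average in EFTF caps. Epidermis markers had overlapping summed levels, 13.63 to 14.19 in EFTF caps and 14.16 to 14.30 in GFP caps, with 13 of 13 lower on average in EFTF caps (median change -0.53). Of these, 2 did not overlap between the groups, 0 were called and 5 had an unadjusted p under 0.05. Dividing cell markers (*mki67.S*, *top2a.L* and both copies of *pcna*) had a summed level of 10.3 to 11.4 in EFTF caps and 9.09 to 10.2 in GFP caps, with 4 of 4 higher on average in EFTF caps. The groups did not overlap for 5 multiciliated, 6 ionocyte and 1 dividing cell probe set (*pcna.L*). Limma called 1 multiciliated and 2 ionocyte probe sets lower and 0 dividing cell probe sets (3 at an unadjusted p under 0.05). Blocking on the replicate number gave 6 multiciliated, 5 ionocyte and 1 epidermis probe set lower and 1 dividing cell probe set higher. Over all probe sets, limma called 1.42%, or 10.2% with the block. On average, 8387 of the 15491 probe sets were higher in EFTF caps and 7104 lower. Of all probe sets, 17.3% had an unadjusted p under 0.05 and 10.2% did not overlap between the groups. The part of these markers in the cyclin levels was not tested.

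Cyclin D1, the partner of Cdk4 and Cdk6 in G1, was higher on average in EFTF caps in both copies. *ccnd1.L* read 8.77, 8.99, 9.53 and 9.81 in EFTF caps, against 8.25, 8.17, 8.37 and 8.60 in GFP caps. The lowest EFTF array stood above the highest GFP array, and the change was 0.93 ± 0.23. *ccnd1.S* read 6.33, 6.42, 6.73 and 8.17 in EFTF caps, against 5.85, 5.68, 5.84 and 6.93 in GFP caps. Its change was 0.84 ± 0.45, with overlapping groups, and replicate 4 was the highest of each group. Without EFTF replicate 4 the change of *ccnd1.S* was 0.42, and without GFP replicate 1 it was 0.76, with 0.89 for *ccnd1.L*. The L minus S difference of *ccnd1* differed between the groups by 0.08 ± 0.32.

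Cyclin D2, another G1 cyclin, overlapped between the groups. *ccnd2.L* read 4.62, 4.49, 4.54 and 4.78 in EFTF caps, against 4.66, 5.13, 4.92 and 4.61 in GFP caps, a change of -0.22 ± 0.14. The *ccnd2* probe set with no copy ending was above background on 1 EFTF and 1 GFP array, and no fold is given for it.

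The E cyclins act with Cdk2, and *ccne1* is, like *ccna1*, a maternal cyclin of the frog egg. *ccne1.L* read 7.34, 7.09, 7.14 and 6.97 in EFTF caps by its brightest probe set, against 7.09, 6.74, 6.83 and 7.47 in GFP caps. The groups overlapped throughout, with a change of 0.10 ± 0.18. The other probe sets of *ccne1.L* changed by -0.04 ± 0.16 and 0.04 ± 0.17. *ccne1.S* read 4.42, 5.13, 5.10 and 5.62 in EFTF caps, against 4.53, 4.42, 4.25 and 4.99 in GFP caps. Its change was 0.52 ± 0.26, or 0.34 without EFTF replicate 4, with the EFTF array below its GFP counterpart only for number 1. *ccne2.L* was above background on 3 EFTF arrays and 1 GFP array, with a change of 0.33 ± 0.17.

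The embryonic cyclins *ccna1* and *ccne1* were averaged and set against the mean of the somatic *ccna2* and the D cyclins. That somatic mean includes the *ccnd2* probe set with no copy ending, which was near background. Embryonic minus somatic was 1.71, 1.17, 0.45 and -0.91 on EFTF replicates 1 to 4, against 2.56, 2.33, 2.34 and 1.72 on GFP replicates 1 to 4. The groups differed by -1.63 ± 0.59, and by -2.86 when *ccne1* was dropped from the embryonic side. EFTF replicate 1 lay just below GFP replicate 4, so the groups touched but did not overlap.

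The B family holds the mitotic cyclins. With n = 4 arrays each and errors as SD, *ccnb1.2.L* averaged 9.19 ± 0.30 in EFTF and 9.38 ± 0.35 in GFP caps, and *ccnb1.2.S* 9.14 ± 0.19 in EFTF and 9.25 ± 0.30 in GFP caps. Both changes, -0.19 ± 0.21 and -0.10 ± 0.17 (SE), were smaller than their SE. *ccnb1.S* stayed near background, above it on 2 EFTF and 3 GFP arrays. *ccnb3*, a B cyclin of a separate branch, was higher on average in all 3 of its probe sets, by 0.52 ± 0.21 and 0.45 ± 0.21 for *ccnb3.L* and by 0.45 ± 0.21 for *ccnb3.S*. Its groups overlapped in each.

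Cyclin B2, also a partner of Cdk1, varied with the replicate number. *ccnb2.L* read 5.75, 6.26, 6.45 and 8.45 on EFTF replicates 1 to 4, against 5.33, 6.04, 6.50 and 8.26 on GFP replicates 1 to 4. Same-numbered arrays differed by -0.05 to 0.42, and replicate 4 was by far the highest of each group. The change was 0.19, with an SE of 0.74 in the unpaired fit and 0.11 when the number was a block. *ccnb2.S* read 8.47, 8.65, 9.02 and 9.40 in EFTF caps, against 8.18, 8.10, 8.30 and 8.63 in GFP caps, a change of 0.58 ± 0.22. The S copy was higher in EFTF caps in each of the 4 same-numbered pairs.

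**Figure D3:**
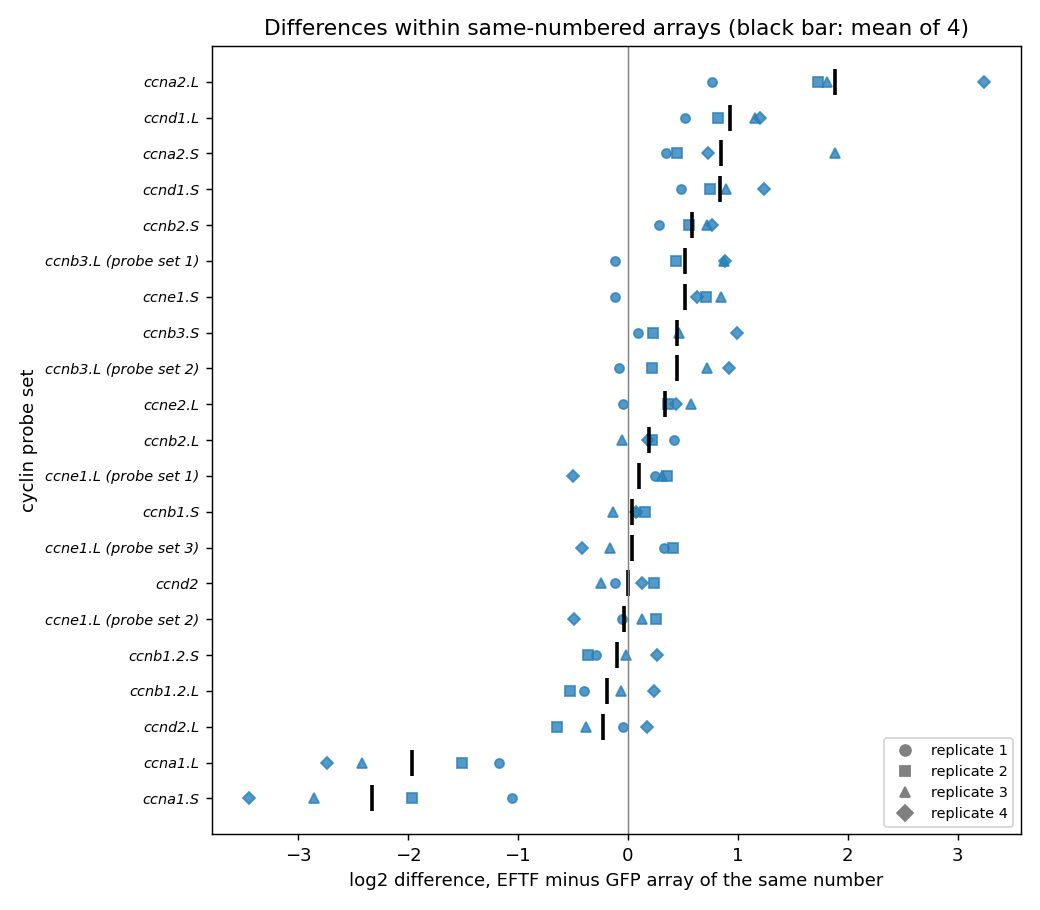
Log2 difference between EFTF and GFP arrays of the same replicate number (horizontal axis) for each of the 21 cyclin probe sets (vertical axis), with a symbol for each number and a black bar for the mean of the 4. Both copies of *ccna1* lie left of 0 in all 4 pairs, and 6 probe sets, those of *ccna2*, *ccnd1*, *ccnb2.S* and *ccnb3.S*, lie right of 0 in all 4. The share of all probe sets that do so was not counted, so nothing is read from these numbers.

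Across all 21 probe sets, 15 were higher and 6 lower on average in EFTF caps, with a median change of 0.19. Of all 15491 probe sets, 8387 were higher and 7104 lower on average, with a median of 0.02. At an adjusted p of 0.05 in limma, 0 of 21 were called, against 1.42% of all probe sets (0.762% higher, 0.658% lower), and 6 (28.6%) had an unadjusted p under 0.05, against 17.3% of all probe sets. The equal-variance test, which the study used for other comparisons, also called 0. It called only 2 of all probe sets, so nothing is read from that 0. With the replicate number as a block, limma called 6 of 21 (28.6%): *ccna1.L* and *ccna1.S* lower, and *ccna2.L*, *ccnd1.L*, *ccnd1.S* and *ccnb2.S* higher. That fit called 10.2% of all probe sets (4.91% higher, 5.25% lower). The groups did not overlap for 3 of 21 (14.3%), *ccna1.L* lower and *ccna2.L* and *ccnd1.L* higher, against 10.2% of all probe sets (5.42% higher, 4.75% lower). At least 2-fold differences were found for 3 of 21 (14.3%), *ccna1.L* and *ccna1.S* lower and *ccna2.L* higher, against 6.6% of all (2.76% higher, 3.84% lower). The families were chosen by this contrast, so nothing is read from these shares.

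Probe sets of other genes whose levels over the 8 arrays were most like those of a cyclin were found by the root mean square (RMS) difference after centring each on its own mean. For *ccna1.L*, whose own RMS spread was 1.13, they were *efcab7.L* (RMS difference 0.23), *pacrgl.L* (0.27), *cfap20.L* (0.27) and *srpk3.S* (0.28). *cfap20* encodes a protein of cilia and flagella, *pacrgl* a relative of a ciliary microtubule protein and *srpk3* a protein kinase. For *ccna2.L*, with an RMS spread of 1.28, they were *epha2.L* (0.31), an ephrin receptor gene, *mcm4.S* (0.39), encoding a subunit of the replicative helicase, the lipid kinase gene *pik3c2a.L* (0.40) and *otx2.S* (0.40). *otx2* is among the injected factors. The study states that the probe set it used for *otx2* does not detect the RNA injected, and whether this covers *otx2.S* is not known here.

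For *ccnd1.L* the closest were *cul1.L* (RMS difference 0.11), the scaffold of a ubiquitin ligase that destroys cyclins, *ralb.L* (0.11), a small GTPase gene, *nelfb.L* (0.12), of a factor that pauses RNA polymerase, and *cse1l.L* (0.13), a nuclear export gene, against a spread of 0.56. For *ccne1.L*, with a spread of 0.23, they were *ndufaf7.S*, *setdb1.L*, *rps28p9.S* and *usp36.S*, at 0.10 to 0.11. All of these levels varied little over the 8 arrays.

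**Figure D4:**
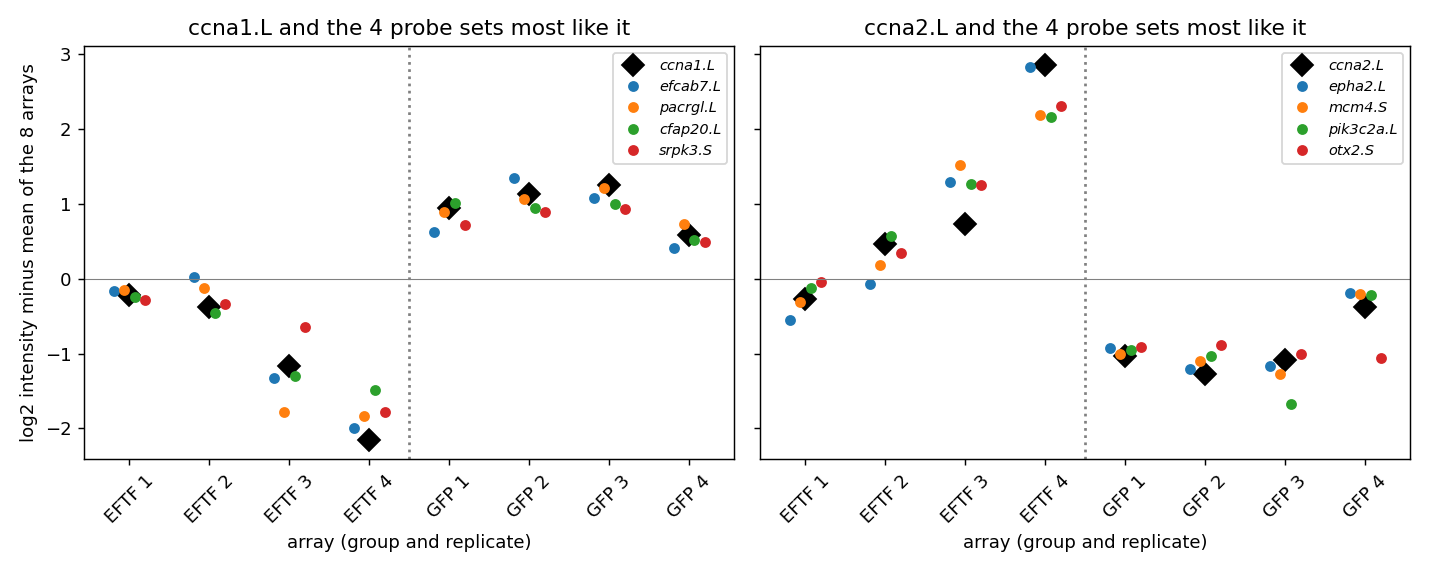
Log2 intensity minus the mean of the 8 arrays (vertical axis) on each array (horizontal axis) for *ccna1.L* (left) and *ccna2.L* (right), drawn as black diamonds, and the 4 probe sets most like each. Both cyclins stand farthest from 0 on EFTF replicate 4, and among GFP arrays lie closest to 0 on replicate 4.

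Genes that work with the cyclins were counted in the same way. Of 22 measured copies of Cdks, Cdk-activating and Cdk-inhibiting factors, 1 was called higher (4.55%) and 0 lower, against 1.61% of all gene copies called. The median was 0.29, against 0.03 over all gene copies. An unadjusted p under 0.05 was found for 5 (22.7%), against 18.4% of all gene copies. The call was *ccnh.L*, cyclin H of the Cdk-activating kinase, at 7.33, 7.63, 7.77 and 7.35 in EFTF caps, against 6.99, 6.65, 6.47 and 6.51 in GFP caps. It rose by 0.87 ± 0.16 (limma adjusted p = 0.0464). The call was lost when any array but the first of each group was left out. Leaving out EFTF replicate 2, 3 or 4 gave a limma adjusted p of 0.0879, 0.126 or 0.074, and leaving out GFP replicate 2, 3 or 4 gave 0.134, 0.149 or 0.0953. Dropping EFTF replicate 1 gave 0.0343 and dropping GFP replicate 1 gave 0.0465.

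The measured copies of the Cdk genes did not pass the test, and *cdk6* had none. *cdk2.S*, the partner of cyclins A and E, averaged 4.27 in EFTF and 3.42 in GFP caps (change 0.85 ± 0.34, limma adjusted p = 0.249). *cdk1.L* changed by 0.57 ± 0.27 and *cdk1.S* by 0.11 ± 0.25 (limma adjusted p = 0.323 and 0.894). *cdk4.S*, the partner of D cyclins, read 8.41, 8.43, 8.93 and 10.3 in EFTF caps, against 8.12, 8.30, 8.50 and 9.92 in GFP caps (change 0.31 ± 0.53, limma adjusted p = 0.847). *cdk7.L*, the Cdk that cyclin H activates, was named after its values were seen, as the measured Cdk with the lowest change. It read 7.06, 5.49, 5.84 and 6.07 in EFTF caps, against 7.23, 6.59, 6.34 and 8.02 in GFP caps. Its change was -0.93 ± 0.44 (limma adjusted p = 0.329, blocked adjusted p = 0.101). *cdk7.L* was lower in each of the 4 same-numbered pairs, and *cdk1.L*, *cdk2.S* and *cdk4.S* were higher in each. The share of all probe sets that do so was not counted, so nothing is read from this. For *cdk4.S*, as with *ccnb2.L*, replicate 4 stood above the other arrays of its group in both groups.

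With the replicate block, 2 copies of this list were higher and 1 lower (13.6%, against 10.9% of all gene copies), the others being *cdc25a.L*, a phosphatase gene that activates Cdks, and *gadd45g.L*, a growth arrest gene. *cdc25a.L* changed by 1.04 ± 0.35 (limma adjusted p = 0.18, blocked adjusted p = 0.0265). *gadd45g.L* changed by -0.62 ± 0.53 (limma adjusted p = 0.637, blocked adjusted p = 0.0265). These and the other blocked calls below were named after their values were seen.

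Of 26 copies of genes that destroy cyclins, 0 were called by limma, against 1.61% of all gene copies. The equal-variance test also called 0, but it called only 2 of all probe sets. An unadjusted p under 0.05 was found for 6 (23.1%), against 18.4% of all gene copies, and the median was 0.17. With the block 3 were higher, *cdc16.L* and *cdc23.S* of the anaphase-promoting complex and *cul1.L*, and 1 was lower (15.4%, against 10.9%). The lower one was *fbxo43.L*, which encodes the inhibitor that holds this complex in check in the arrested egg. It averaged 5.03 ± 0.60 (SD) in EFTF and 6.56 ± 0.59 (SD) in GFP caps (limma adjusted p = 0.0816, blocked adjusted p = 0.0182).

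Regulators of cyclin transcription gave 0 calls of 22 by limma, against 1.61% of all gene copies. The equal-variance test also gave 0, but it called only 2 of all probe sets. An unadjusted p under 0.05 was found for 6 (27.3%), against 18.4% of all gene copies, and the median was 0.23. With the block *e2f1.L*, an activator of S phase genes, and *mycn.L* were higher (9.09%, against 10.9%). *e2f1.L* read 3.94, 3.96, 4.72 and 4.54 in EFTF caps, against 3.31, 3.19, 3.09 and 3.50 in GFP caps, with no overlap (limma adjusted p = 0.056, blocked adjusted p = 0.031).

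Among 17 copies of cyclins outside families A, B, D and E, *ccnh.L* was the 1 called (5.88%, against 1.61% of all gene copies). It is the same call that was counted for the Cdk list. An unadjusted p under 0.05 was found for 4 (23.5%), against 18.4% of all gene copies, and the median was 0.18. With the block 3 were called (17.6%, against 10.9%), *ccnj.S* being higher as well (change 1.24 ± 0.42, limma adjusted p = 0.181, blocked adjusted p = 0.0308). *ccno.L*, which works in multiciliated cells, was lower (change -1.24 ± 0.56, limma adjusted p = 0.3, blocked adjusted p = 0.0276).

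Other transcripts of the oocyte and egg were listed as well. Of 23 copies, 0 were called by limma, against 1.61% of all gene copies, and 0 with the block, against 10.9%. The equal-variance test also called 0, but it called only 2 of all probe sets. An unadjusted p under 0.05 was found for 0 of the 23, against 18.4% of all gene copies. Changes of the 23 ran from -0.19 to 0.26 with a median of 0.00. Only 9 of the 23 were above background on all 8 arrays, so a change in the others would be hard to see. The list does not cover every egg transcript. *fbxo43.L*, whose product acts in the arrested egg, was counted with the destruction genes and changed by -1.52. *h1-8.S*, the linker histone of the egg, read 6.55, 5.08, 4.59 and 7.60 in EFTF caps, against 6.65, 5.38, 4.47 and 7.42 in GFP caps, a change of -0.03 ± 0.82 with a wide spread by replicate number in both groups.

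**Figure D5:**
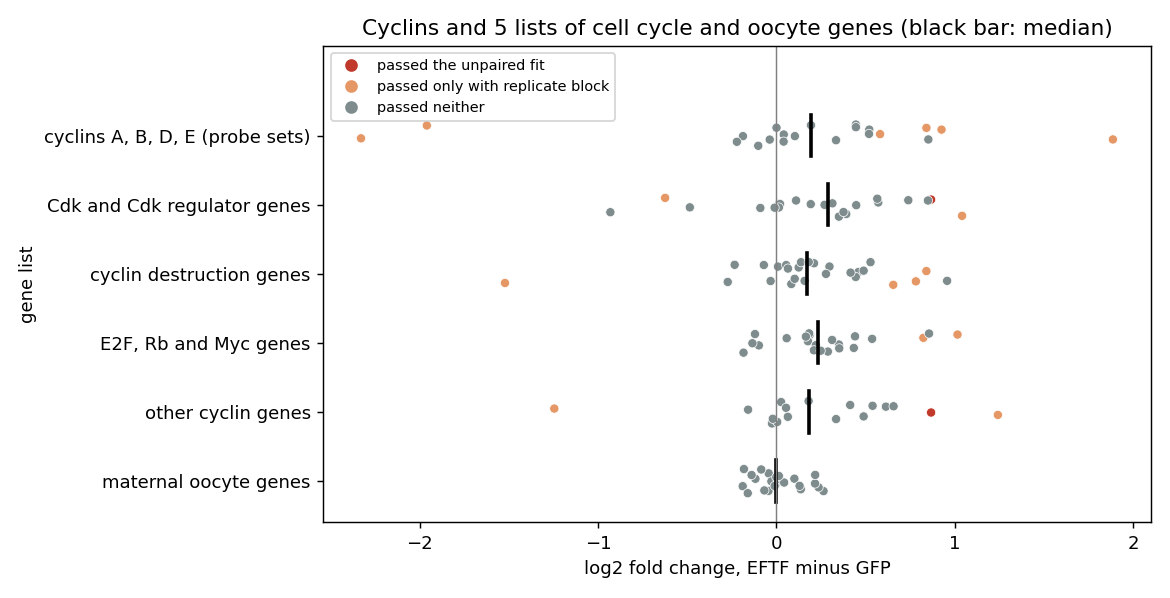
Log2 fold change, EFTF minus GFP (horizontal axis), of the 21 cyclin probe sets and of the gene copies of 5 lists (rows), with colours for the fit each passed and black bars for medians. The cyclin median stands at 0.19, the Cdk list at 0.29 and the oocyte list at 0.00, and both *ccna1* copies lie at the far left.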

How the data were processed

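RNA of 8 pools of animal caps was hybridised to Affymetrix *X. laevis* GeneChips. The authors processed the scans with RMA (background correction, quantile normalization, summary of probes), and the deposited values are intensity on a linear scale. The methods add a scaling of the average signal in GeneSpring, and the sources used here do not say whether it is in the values. Here log2 was taken without a pseudocount or further normalization. Groups and replicate numbers came from the sample titles.

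Of 15611 probe sets, 120 Affymetrix controls were left out. An array annotation gave 1 symbol for 9304 probe sets, and 20 of the 21 cyclin probe sets matched the Xenopus_laevis_v10.1 gene table by gene ID. Its coordinates were not used, since the array names no build. Sequences were not used here.

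EFTF and GFP arrays were set against each other in limma 3.58.1 under R 4.3.3 (lmFit, eBayes, two-sided). Benjamini-Hochberg adjustment ran over 15491 probe sets with a threshold of 0.05. The SE of a single probe set is that of the limma fit, whose variance borrows from all probe sets. The SE of a difference between cyclins or cyclin copies is the ordinary pooled SE of the 4 and 4 arrays, so these errors are not alike. The fits were also run on simulated arrays with independent noise and no effect of the replicate number. That run cannot vouch for them in data with such an effect. Each list gene was represented by its brightest probe set. Precision is limited by having 4 arrays in each group. The series calls the arrays biological replicates, while the methods describe triplicates from different females. Which array came from which is not given here, so p-values measure the spread between these arrays.

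Deviations of same-numbered arrays from their group means correlated at 0.22 to 0.64 across probe sets, and those of differently numbered arrays at -0.45 to 0.28. Every same-numbered pair was above 0.1, but EFTF replicate 2 with GFP replicate 3 (0.28) exceeded EFTF replicate 3 with GFP replicate 3 (0.22). The methods name no pairing, so the unpaired fit was the main one. A pairing by number is inferred from these same data, and blocked values are given where they change a call.

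The members, gene lists and tests were chosen with earlier results of these data known. Named genes are every cyclin probe set, called list genes (6 at most for each list), the copies of *cdk1*, *cdk2*, *cdk4* and *cdk6* and the 4 probe sets most like each of *ccna1*, *ccna2*, *ccnd1* and *ccne1*. Others are said to be named after their values were seen. Alternatives were the replicate block, replicate 4 as a batch, other normalization, a pseudocount of 16, a filter on dim probe sets, single arrays left out and the equal-variance test.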

Additional observations from a re-analysis of the deposited data

Results flagged for a closer look

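In 50 groups of 4 arrays (21 cyclin probe sets and 4 differences between cyclins, in EFTF and in GFP caps), 2 arrays stood far from the others of their group, by Dixon's 95% criterion on the gap to the nearest array. Chance flags about 1 in 20 such groups. Both were GFP replicate 4, at 6.93 for *ccnd1.S* and at 3.39 for *ccna1* minus *ccna2*. Without that array the difference between the groups in *ccna1* minus *ccna2* was -3.96, against -3.51 with it.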

How the results depend on the processing

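Over all probe sets 220 were called, against 1575 when the replicate block was used and 754 when replicate 4 was a batch block. There were 92 with 16 added before log2, 305 without dim probe sets, 18 within replicates 1 to 3 and 2 by the equal-variance test. Leaving out EFTF replicates 1, 2, 3 or 4 gave 702, 84, 46 or 68, and GFP replicates 1, 2, 3 or 4 gave 121, 26, 25 or 81. For the cyclins the 0 calls became 6 with the replicate block, 5 with the batch block (*ccnb2.S* dropping out) and 1 without dim probe sets (*ccna1.L*). There were 2 at an adjusted p of 0.1, a threshold at which all probe sets were not counted. Leaving out single arrays gave 0 to 2, the 2 being *ccna1.L* and *ccnd1.L* without EFTF replicate 1. The families were chosen by this contrast, so nothing is read from these cyclin counts. In the order Cdk list, cyclin destruction, E2F and Myc, other cyclins, the counts of 1, 0, 0 and 1 became 3, 4, 2 and 3 with the replicate block, and 2, 1, 1 and 1 with the batch block. They ranged over 0 to 1, 0 to 3, 0 to 1 and 0 to 1 with single arrays left out, each highest value being without EFTF replicate 1 (for the Cdk list and other cyclins also without GFP replicate 1). Without dim probe sets the E2F list had 1. The Cdk list and the other cyclins had 0 with 16 added, within replicates 1 to 3 and by the equal-variance test. The oocyte list had 0 in every fit listed here. Shares over all gene copies were taken only for the main fit and the replicate block, so nothing is read from the other list counts. The cause of these moves was not tested.

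The embryonic minus somatic difference of -1.63 ranged from -1.997 to -1.12 with single arrays left out. It was -1.32 with every probe set of the genes, -2.29 with *ccna2* alone on the somatic side and -2.86 with *ccna1* alone on the embryonic side, chosen after seeing the data. The *ccna1* minus *ccna2* difference, also chosen then, ranged from -4.31 to -2.55. Among the cyclins and the 5 lists the block changed no call other than those named. The differences of -1.63 and -3.51 keep their size under the block by arithmetic alone, because each replicate number has an EFTF and a GFP array. The 9 cyclin probe sets with a change of at least 0.5 kept their sign in all 126 recomputed values, which cover the blocks, normalizations, the pseudocount and left-out arrays. The blocks cannot alter a change in this balanced design, and the 9 were taken for the size of their change. Nothing is therefore read from the kept signs. Transcripts near background, *ccnb1.S*, *ccnd2*, *ccne2.L* and, in GFP caps, *ccna2.S* among them, could change without it being seen.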
